A study of Mus musculus with 4 samples.

Results

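Cytosolic ribosomal protein genes encode the proteins of the large (60S) and small (40S) ribosomal subunits and of the acidic stalk, the flexible arm of the large subunit that recruits translation factors. These genes were described here in mouse embryonic stem (ES) cells, in induced pluripotent stem (iPS) cells and in the bone marrow cells from which the iPS cells were made. Members were genes whose probe's RefSeq accession maps to a symbol that starts with Rpl or Rps and a digit, or to Rplp0, Rplp1, Rplp2 or Rpsa. Rps6k kinases and pseudogenes were left out. The rule gave 84 genes with 121 probes, of 21216 genes or transcripts tested and 33378 on the array. Of the 84, 77 encode structural proteins (43 of the large subunit, 31 of the small subunit and 3 of the stalk). A further 5 are paralogs of such genes (Rpl3l, Rpl22l1, Rpl36al, Rpl39l and Rps27l), and 2, Rpl7l1 and Rps19bp1, encode no ribosomal protein and were included by name only. Another 11 RefSeq symbols that meet the rule had no matched probe.

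The RNA came from 4 samples, each read on its own single-colour array. ES cells of line E14, strain 129, gave 1 sample. The iPS lines 7 and 13, labelled C57BL/6 and made from bone marrow mononuclear cells (BMMNCs) of Oct4-EGFP transgenic mice, gave 1 sample each (n = 2). BMMNCs of strain C57BL/6, a mixture of blood cell types and their precursors, gave 1 sample. The ES and iPS cultures were kept on a feeder layer of irradiated mouse embryonic fibroblasts, and preplating on gelatin depleted the feeders ahead of RNA extraction. The title of the series speaks of making pluripotent cells from adult marrow, and the comparisons here therefore set the iPS lines against their source, BMMNCs, and against ES cells.

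Ribosomal protein mRNAs are among the most abundant messages of growing cells, and the subunits need their proteins in nearly equal amounts. In vertebrates many of these mRNAs begin with a C followed by a run of pyrimidines, the 5′ terminal oligopyrimidine motif. This motif lets mTORC1 signalling control their translation, while the mRNA level is set separately. An array measures the mRNA level alone. Pluripotent cells cycle fast and keep ribosome assembly active, and marrow contains erythroid and myeloid precursors in which defects of ribosomal protein genes are known to cause anaemia.

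Sequences around an annotated transcription start of 8 members are shown because these genes passed the test against BMMNCs in the same direction under all 6 scalings described further on. They are only some of the members that did so, picked with the values known. The sequences come from RefSeq (GRCm38.p6), 5′ to 3′ on the gene's strand, 30 bases long with 15 before the start. Capitals mark a run of at least 5 bases that begins with C, holds only C and T, and has its first base within 5 bases of the annotated start. The first 4 genes were lower in iPS cells than in BMMNCs and the last 4 were higher.
Rps24, chr14:24490663-24490692, plus strand: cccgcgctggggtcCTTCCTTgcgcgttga
Rpl27a, chr7:109519180-109519209, plus strand: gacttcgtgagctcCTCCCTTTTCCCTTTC
Rpl39, chrX:37085208-37085237, minus strand: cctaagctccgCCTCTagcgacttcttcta
Rpl3l, chr17:24727811-24727840, plus strand: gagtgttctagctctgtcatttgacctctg
Rps26, chr10:128626492-128626521, minus strand: gtcgggcaagccgccggatCCTCTTTCgag
Rpl14, chr9:120571502-120571531, plus strand: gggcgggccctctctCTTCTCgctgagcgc
Rpl4, chr9:64173372-64173401, plus strand: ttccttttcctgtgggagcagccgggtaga
Rpl39l, chr16:10170213-10170242, plus strand: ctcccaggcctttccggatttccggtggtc
A run was found at the starts shown of Rps24, Rpl27a and Rpl39, which were lower in iPS cells, and of Rps26 and Rpl14, which were higher. No such run lies in the window of Rpl3l, which was lower, or of Rpl4 or Rpl39l, which were higher. Rps24 and Rpl3l each have another annotated start, and neither of these has a run. Annotated starts can be off by some bases, and a match describes letters only.

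RefSeq promoter windows (250 bases before the start to 50 after) were matched for 57 structural genes, with 67 starts in all. The run was present at 29 of the 67 starts (43.3%), against 18.3% of all 32851 RefSeq windows and 22.7% of the windows of mitochondrial ribosomal proteins. The letters CCGGAAG, searched on both strands, occurred in 37.3% of the structural windows, 34.7% of the mitochondrial ones and 8.86% of all. TATAAA, also on both strands, occurred in 8.96% of the structural windows and 13.6% of all. Among structural genes with a window, the run was present in 4 of the 8 that rose in iPS cells against BMMNCs, in 13 of the 27 that fell and in 10 of the 22 that did not pass the test. The difference between these shares was not tested.

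All 84 members were above background on all 4 arrays, and none of their spots was saturated. Levels are log2 signals relative to the array's 75th percentile, which was at a signal of 1048 (ES cells), 1120 (line 7), 1123 (line 13) and 602 (BMMNCs). With 4 arrays the precision is limited by their number, and the 10 spots of repeated probes had a median SD of 0.060 to 0.062 on the log2 scale. For 69 members the signal was read from the low scan on every array, for 10 on none and for 5 on some. Among these 5 are Rpl4, Rpl24 and Rpl29, which are described below.

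Ribosomal protein probes lay near the top of every array. Of the 77 structural genes, 76 were above the 75th percentile on every array. The exception was Rpl21, at levels of -1.07 (ES cells), -1.07 (line 7), -0.95 (line 13) and -0.67 (BMMNCs). Signals of different probes also depend on how well each probe binds, so these levels do not order the genes by mRNA amount. The structural genes' median level was 7.18 in ES cells, 6.96 in line 7, 7.05 in line 13 and 7.29 in BMMNCs. Their share of the summed signal was 9.52%, 9.25%, 9.34% and 10.01% in the same order, so both the median and the share were highest in BMMNCs.

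**Figure D1:**
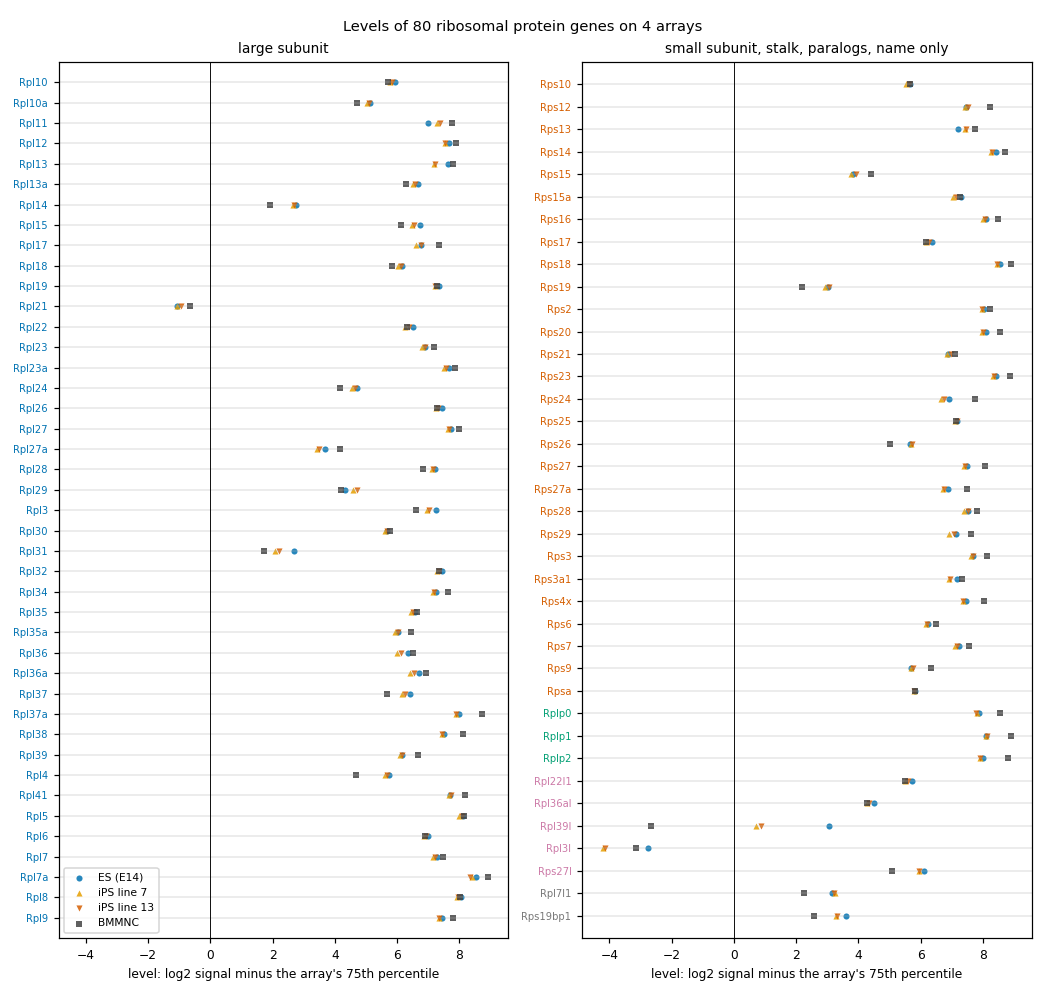
Level of each of 80 of the 84 genes (log2 signal minus the array's 75th percentile, x axis) in ES cells, iPS lines 7 and 13 and BMMNCs, 1 point per array, with gene names coloured by role. The structural genes shown, other than Rpl21, lie above 0 on every array, and Rpl39l spans the range from 3.05 in ES cells to -2.67 in BMMNCs.

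Marker genes separated the samples as labelled, and fibroblast markers were present in ES and iPS cells. All 10 pluripotency markers were above background in ES cells and both iPS lines, and 4 of 10 in BMMNCs, with median levels of 4.10, 3.37, 3.53 and -6.12. Of 8 pan-haematopoietic markers 7 were above background in ES cells and each line and 8 in BMMNCs, with median levels of -2.47, -2.505, -2.54 and 4.16. All 8 granulocyte markers were above background in BMMNCs (median level 8.26), and 2, 1 and 1 of 8 in ES cells, line 7 and line 13. Of 7 erythroid markers, 7 were above background in BMMNCs and 4, 2 and 3 in the others; of 6 B cell markers, 6 in BMMNCs and 4 in each of the others. All 8 fibroblast markers were above background in ES cells and both iPS lines, with median levels of 3.66, 3.82 and 3.75, against 3 of 8 in BMMNCs (-6.42). ES and iPS samples thus differ from BMMNCs in feeder markers and in every blood marker list as well. Their part in the results below was not tested.

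Against BMMNCs, ribosomal protein genes differed little and mostly downwards in iPS cells, a direction that depends on the scaling. In iPS cells 15 members rose (17.9%), where 38.0% of all tested genes rose, and 36 fell (42.9%), where 37.8% of all fell (limma, adjusted p under 0.05). The members' median log2 difference was -0.29 (SD over genes 0.62), and that of all genes was -0.01 (SD 2.71). Only 1 member, Rpl39l, differed at least 2-fold in both lines (1.19%), against 50.7% of all genes. With quantile normalization the members' median turned to 0.14, and 27 rose (32.1%) and 7 fell (8.33%), against 39.1% and 38.6% of all genes. With median scaling it was -0.51, and 8 rose (9.52%) and 45 fell (53.6%), against 33.2% and 43.5% of all. Without a filter on dim probes 6 rose (7.14%) and 8 fell (9.52%), against 19.9% and 21.7% of all. Counting ES and iPS arrays as 1 group was an alternative chosen after seeing the data. There 9 rose (10.7%) and 20 fell (23.8%), against 30.8% and 30.4% of all. In a mixed sample such as BMMNCs, fewer cells of a type and less RNA per cell cannot be told apart. The single ES and BMMNC arrays are taken by the fit to vary like the iPS lines, which no array here can test.

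**Figure D2:**
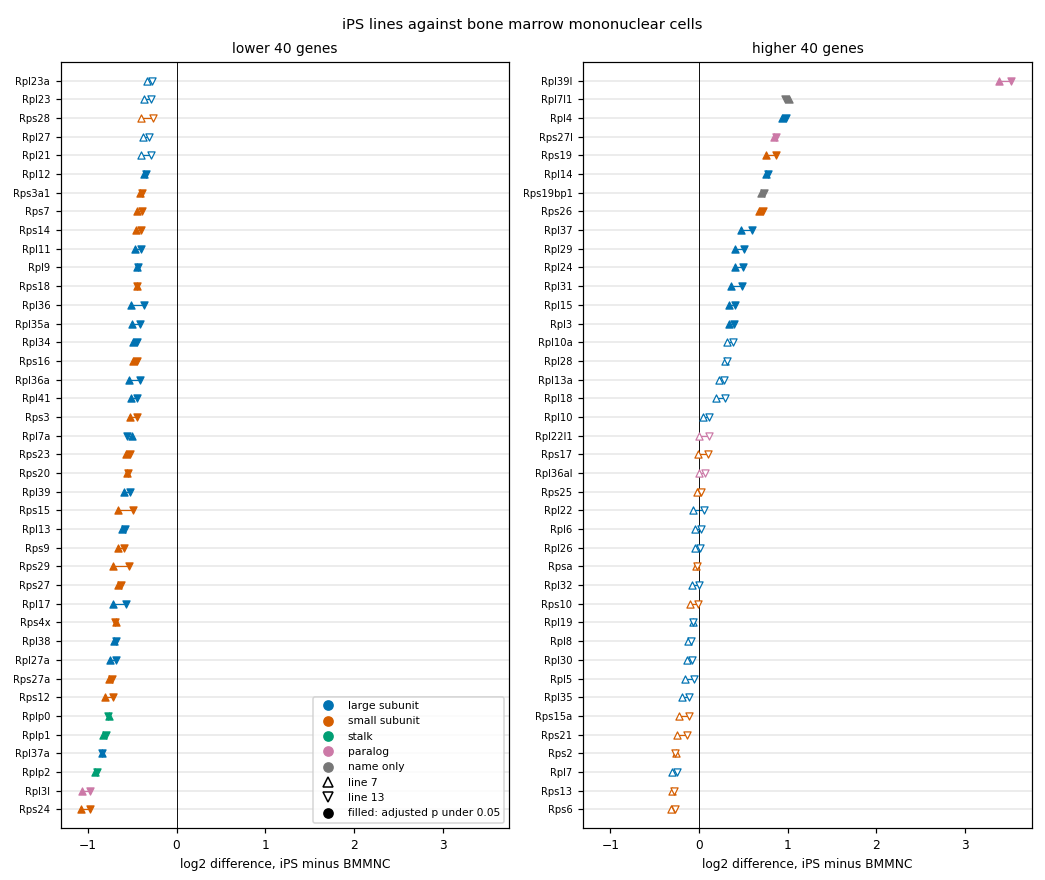
Log2 difference of each iPS line from BMMNCs for 80 of the 84 genes, ordered by their mean, with line 7 as upward and line 13 as downward triangles, coloured by role and filled where limma's adjusted p was under 0.05. Rpl39l stands apart at 3.45, and the other genes lie between -1.02 and 0.99. With quantile normalization 7 in place of 36 of all members fell, where 38.6% in place of 37.8% of all genes did.

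The 6 scalings compared were the 75th percentile over all probes or over probes above background on every array, the median, quantile normalization, normexp background correction and the authors' value table. Under all 6, 8 members rose in iPS cells against BMMNCs (Rpl4, Rpl14, Rps19, Rps26, Rps27l, Rpl39l, Rpl7l1 and Rps19bp1). Another 6 fell under all 6 (Rps9, Rps24, Rps27a, Rpl27a, Rpl39 and Rpl3l). A further 11 were higher and 24 lower under every scaling without passing the test in each, and 35 members changed sign. The share of all genes that met these rules was not counted, so the counts describe the members only. In the single scalings 33.2% to 41.0% of all genes rose and 34.8% to 47.1% fell. Without the filter on dim probes, which raises the number of genes tested, the calls kept were the rises of Rpl4, Rpl14, Rps19, Rps27l, Rpl39l and Rpl7l1 and the falls of Rpl3l, Rpl37a, Rplp0, Rplp1, Rplp2, Rps12, Rps24 and Rps27a. Relative to -0.01 in the setting used here, the median difference of all genes was -0.22 with median scaling, -0.20 with normexp and 0.12 with the value table.

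Of the 43 large subunit genes 8 rose and 16 fell, with a median of -0.15 that turned with quantile normalization as the members' median did. Of all tested genes 38.0% rose and 37.8% fell, so the falls of the large subunit lay near the share over all genes. Rpl4, which lines the tunnel through which new proteins leave the ribosome, was at 5.75 in ES cells, 5.61 in line 7, 5.66 in line 13 and 4.68 in BMMNCs. BMMNCs were the lowest, and the iPS lines were 1.94-fold higher than BMMNCs (log2 difference 0.96, SE 0.095, adjusted p = 0.0059). Rpl14, a surface protein of the large subunit, was at 2.75, 2.66, 2.68 and 1.90 in the same order and rose by 0.77 (SE 0.092, adjusted p = 0.0087). Rpl37 was at 6.41, 6.15, 6.27 and 5.67 and rose by 0.54 (SE 0.11, adjusted p = 0.029), a call that median scaling ended; with the mean of all its probes the difference turned to -0.090 (adjusted p = 0.52). The second probe of Rpl37 was dim on every array and not well above background in line 13. The other large subunit genes that rose were Rpl3, Rpl15, Rpl24, Rpl29 and Rpl31, with differences of 0.37 to 0.46. These too lost their call with median scaling.

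At the low end of the large subunit, BMMNCs were the highest array. Rpl37a was at 7.98 in ES cells, 7.89 in line 7, 7.90 in line 13 and 8.73 in BMMNCs. It fell by 0.84 in iPS cells (SE 0.092, adjusted p = 0.0072) and differed by -0.05 with quantile normalization. Rpl27a was at 3.68, 3.42, 3.48 and 4.17 in the same order and fell by 0.72 (SE 0.098, adjusted p = 0.011). Rpl38, known for its part in translating certain Hox mRNAs, was at 7.51, 7.43, 7.45 and 8.13 and fell by 0.70 (SE 0.092, adjusted p = 0.011), or by 0.18 without passing the test with quantile normalization. Rpl39, a small protein near the tunnel exit, was at 6.16, 6.09, 6.16 and 6.69 and fell by 0.56 (SE 0.098, adjusted p = 0.020).

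In the small subunit 3 genes rose and 16 fell of 31, with a median of -0.40, where 38.0% and 37.8% of all tested genes did. Of these falls only those of Rps9, Rps24 and Rps27a kept their call with quantile normalization. Rps19, needed to mature the small subunit and the gene most often mutated in Diamond-Blackfan anaemia, was at 3.03 in ES cells, 2.93 in line 7, 3.05 in line 13 and 2.18 in BMMNCs. It rose by 0.81 (SE 0.11, 1.75-fold, adjusted p = 0.011), with BMMNCs the lowest array. Rps26, which lies at the exit of the mRNA channel, was at 5.66, 5.69, 5.73 and 5.01 and rose by 0.70 (SE 0.094, adjusted p = 0.011).

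Rps24, another Diamond-Blackfan anaemia gene, had the lowest difference of all members. It was at 6.90 in ES cells, 6.66 in line 7, 6.76 in line 13 and 7.73 in BMMNCs, and fell by 1.02 (SE 0.11, 2.03-fold, adjusted p = 0.0065). BMMNCs stood above the other 3 arrays, and the difference ranged from -1.24 to -0.65 over the 6 scalings. Rps12 was at 7.47, 7.44, 7.53 and 8.25 in the same order and fell by 0.76 (SE 0.10, adjusted p = 0.011), a call that quantile normalization ended. Rps27a, which is made as a fusion with ubiquitin, was at 6.89, 6.72, 6.76 and 7.48 and fell by 0.74 (SE 0.094, adjusted p = 0.0097). Rps6, the substrate of the S6 kinases, was at 6.25, 6.18, 6.22 and 6.498 and did not pass the test (difference -0.30, adjusted p = 0.071). Rps14, Rps16 and Rps18, chosen after their values were seen, fell here and rose with quantile normalization, with differences of 0.39, 0.32 and 0.46.

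All 3 stalk genes fell against BMMNCs, where 37.8% of all tested genes fell. Their mean levels were 7 and over, where 26 of 41 members and 23 of 56 other genes fell. Rplp0, the anchor of the stalk, was at 7.87 in ES cells, 7.80 in line 7, 7.79 in line 13 and 8.56 in BMMNCs and fell by 0.77 (SE 0.092, adjusted p = 0.0088). The other probe of Rplp0, also above background on all arrays, differed by only -0.19. Rplp1 was at 8.12, 8.09, 8.13 and 8.92 in the same order and fell by 0.81 (SE 0.093, adjusted p = 0.0081). Rplp2 was at 8.003, 7.90, 7.92 and 8.82 and fell by 0.91 (SE 0.092, adjusted p = 0.0061). At the brightest probe of every stalk gene, ES cells and both iPS lines lay within 0.11 of each other, all below BMMNCs. With quantile normalization the 3 differences were -0.05, -0.03 and -0.09, and none passed the test.

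Against BMMNCs the 5 paralogs ranged from -1.02 (Rpl3l) to 3.45 (Rpl39l), and Rpl22l1 and Rpl36al hardly differed. Rpl39l, a paralog of Rpl39 known from male germ cells, was at 3.05 in ES cells, 0.72 in line 7, 0.86 in line 13 and -2.67 in BMMNCs. The iPS lines lay between the other samples, 10.96-fold above BMMNCs (log2 difference 3.45, SE 0.12, adjusted p = 0.0011). Its other probe was at -1.54, -3.41 and -3.40 in ES cells, line 7 and line 13 and was not well above background in BMMNCs, in the same order of samples. The parent gene Rpl39 moved the other way against BMMNCs, as given above.

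Rps27l, a paralog of Rps27 that p53 induces, was at 6.12 in ES cells, 5.94 in line 7, 5.96 in line 13 and 5.09 in BMMNCs. It rose by 0.86 (SE 0.092, 1.81-fold, adjusted p = 0.0070), while Rps27 was at 7.50, 7.40, 7.43 and 8.06 and fell by 0.65 (SE 0.093, adjusted p = 0.013), a call that quantile normalization ended. Rpl3l, a paralog of Rpl3 known from striated muscle, was dim on every array, at -2.75, -4.22, -4.13 and -3.16. It fell by 1.02 (SE 0.10, adjusted p = 0.0061), a call lost with ES and iPS arrays as 1 group, while Rpl3 was at 7.25, 6.96, 7.02 and 6.62 and rose by 0.37 (SE 0.097, adjusted p = 0.048). Rpl22l1 and Rpl36al differed from BMMNCs by 0.05 and 0.04 and did not pass the test (adjusted p = 0.68 and 0.75). Of their parents, Rpl22 differed by -0.01 (adjusted p = 0.97), and Rpl36a fell by 0.47 (adjusted p = 0.038), a call that quantile normalization ended.

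**Figure D3:**
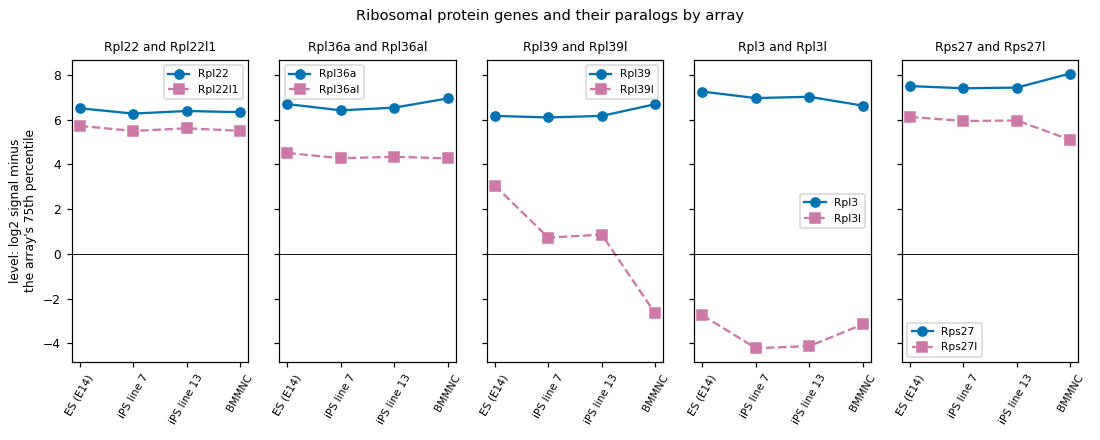
Level (log2 signal minus the array's 75th percentile, y axis) of 5 paralogs (squares) and their parent genes (circles) in ES cells, iPS lines 7 and 13 and BMMNCs, 1 array each. Rpl39l steps from 3.05 in ES cells through 0.72 and 0.86 in the iPS lines to -2.67 in BMMNCs; the distance between the curves of a panel compares different probes and is not a ratio of mRNA amounts.

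Both genes included by name only rose against BMMNCs, where 38.0% of all tested genes rose and 37.8% fell. Rpl7l1, which takes part in assembling the large subunit, was at 3.16 in ES cells, 3.25 in line 7, 3.21 in line 13 and 2.24 in BMMNCs, and rose by 0.99 (SE 0.095, 1.98-fold, adjusted p = 0.0055). Rps19bp1, a binding partner of Rps19 and of the deacetylase Sirt1, was at 3.598, 3.27, 3.31 and 2.57 and rose by 0.72 (SE 0.094, adjusted p = 0.011). BMMNCs were the lowest array for both. Without the paralogs and these genes, 11 structural genes rose, 35 fell and 31 did not pass, with a median of -0.33.

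Of 3 subunit genes with other names, Fau and Rack1 fell against BMMNCs and the other did not pass the test, where 37.8% of all tested genes fell. Fau, a ubiquitin-like fusion that yields a small subunit protein, was at 7.98 in ES cells, 7.87 in line 7, 7.93 in line 13 and 8.95 in BMMNCs and fell by 1.05 (SE 0.095, adjusted p = 0.0049). Rack1, a scaffold on the small subunit, fell by 0.66 (SE 0.093, adjusted p = 0.012), or differed by 0.01 with quantile normalization.

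The signed difference of members from BMMNCs was lower at higher levels. Among 41 members at a mean level of 7 and over, 26 fell and 1 rose, with a median difference of -0.44. Of the 56 other genes at these levels 23 fell and 11 rose, with a median of -0.20. Among 30 members at levels of 5 to 7, 7 fell and 6 rose (median -0.02), and of 419 other genes 103 fell and 165 rose (median 0.16). Among 13 members under 5, 8 rose and 3 fell (median 0.45), and of 20657 other genes 7863 rose and 7866 fell (median -0.01). These 13 include the paralogs Rpl3l, Rpl36al and Rpl39l and both genes included by name only. Over the 77 structural genes the level and the difference had a Pearson r of -0.46 and a Spearman rho of -0.50. The points share the same 4 arrays and their scaling, and the level enters the difference, so these values are a description across genes. With quantile normalization r was -0.11.

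Genes with several probes gave the same mRNA at different signal strengths. Of 28 members with at least 2 probes above background on all arrays, 13 had probes of opposite sign against BMMNCs, and 7 against ES cells. The brightest probe gave the lower difference from BMMNCs in 19 of 28 genes and the lower difference from ES cells in 14 of 28. The range over a gene's probes had a median of 0.44 against BMMNCs, at most 1.1001 in Rpl7a, and of 0.06 against ES cells.

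Examples show how far the probes of a gene part. Rpl7a, a large subunit protein, differed from BMMNCs by -0.53 at its brightest probe and by 0.46 and -0.64 at the others. Rps18 differed by -0.44 and 0.35, Rps2 by -0.27 and 0.40, and Rps3, at the entry of the mRNA channel, by -0.49 and 0.39. Rpl23 differed by -0.33 and 0.65, and Rpl34 by -0.47 and 0.21. Rpl22 differed by -0.01 and 1.03 against BMMNCs and by -0.18 and 0.54 against ES cells. The signs also parted in Rpl6, Rpl7, Rpl19, Rpl23a, Rpl31 and Rps25. In Rpl31 the brightest probe gave 0.42 and the other -0.12, and Rps25 was at 0.00 and -0.46. Ribosomal protein genes have many near-identical pseudogene copies, so the values of single probes are uncertain.

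**Figure D4:**
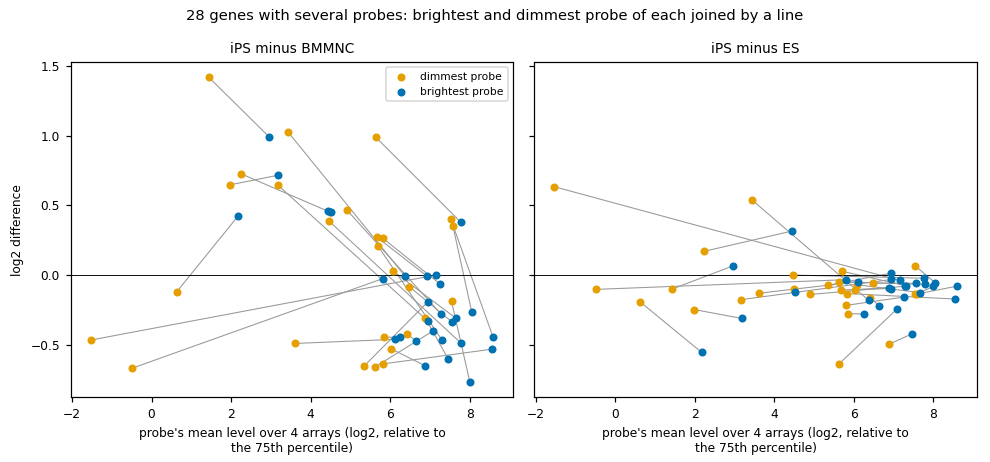
Log2 difference of the iPS lines from BMMNCs (left) and from ES cells (right) at the brightest and dimmest probe of 28 genes, against the probe's mean level over 4 arrays, with lines joining probes of a gene. Against BMMNCs the probes of a gene part by a median of 0.44 and most lines slope down to the brightest probe (19 of 28); against ES cells they part by 0.06.

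Against ES cells the iPS lines differed little in ribosomal protein genes. No member rose, where 1.95% of all tested genes did, and 2 fell (2.38%), where 2.83% of all did (limma, adjusted p under 0.05). At an unadjusted p under 0.05 in limma, 1 member was higher and 6 were lower. Of all 21216 genes tested, 6636 passed that threshold in either direction. With an intensity trend in limma 3 members rose (3.57%) and 14 fell (16.7%), where 15.6% and 20.7% of all genes did. With genes above background on all arrays 2 rose and 7 fell (2.38% and 8.33%, against 16.3% and 22.6% of all), and with normexp 1 and 7 (1.19% and 8.33%, against 9.79% and 14.3% of all). The members' median difference was -0.09 (SD over genes 0.31) and that of all genes was -0.06 (SD 0.71). The same 2 members were the ones at least 2-fold apart in both lines, against 6.52% of all genes. Of the members 10 were higher and 74 lower in iPS cells, where 9248 and 11968 of all 21216 genes tested were. Median scaling moved the members' median to 0.00060. Both comparisons use the same 2 iPS arrays.

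The genes that fell against ES cells were the paralogs Rpl39l and Rpl3l. Rpl39l fell by 2.26 (SE 0.12, 4.78-fold, adjusted p = 0.043), with both iPS lines far below ES cells, and its other probe differed by -1.87. Rpl3l, dim on every array, fell by 1.43 (SE 0.10, 2.69-fold, adjusted p = 0.045). With normexp its difference was -0.90. Over the alternatives that changed the filter, scaling or variance model, the adjusted p ranged from 5.4e-15 to 0.16 for Rpl39l and from 4.6e-08 to 0.17 for Rpl3l. Both calls were lost with the 75th percentile over detected probes, with the value table and without a filter, settings in which 0 of all genes tested passed against ES cells. The differences there were -2.25, -2.22 and -2.26 for Rpl39l and -1.41, -1.39 and -1.43 for Rpl3l, and 6655, 6634 and 4719 genes had an unadjusted p under 0.05 in limma. Their parents Rpl39 and Rpl3 differed by -0.04 (adjusted p = 0.82) and -0.26 (adjusted p = 0.20).

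No structural gene passed limma's test against ES cells. At an unadjusted p under 0.05 in limma, 1 of the 77 was higher and 4 were lower, against 6636 of all 21216 genes in either direction. With an intensity trend 3 rose and 11 fell, where 15.6% and 20.7% of all genes did. Rpl31, at 2.69, 2.08 and 2.20 in ES cells, line 7 and line 13, differed by -0.55 (SE 0.11, adjusted p = 0.10). ES cells were the highest of the 4 arrays. At the other end Rpl11, which binds the 5S rRNA and the p53 regulator Mdm2, was at 7.00 in ES cells, 7.29 in line 7, 7.37 in line 13 and 7.77 in BMMNCs and differed by 0.33 (adjusted p = 0.16). Rpl29 and Rps13 differed by 0.32 and 0.25 (adjusted p = 0.18 and 0.21). In the small subunit the lower values included Rps3a1 and Rps15a, at -0.24 and -0.22, and the stalk genes ranged from -0.10 to -0.01.

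Rpl13, the next lowest of the large subunit after Rpl31, lies on chromosome 8. Rpl13 stood at 7.62 (ES cells), 7.18 (line 7) and 7.22 (line 13), a difference of -0.42 (adjusted p = 0.11). The median difference of all 674 tested genes with a symbol on chromosome 8 was -0.39, against -0.03 for 12364 on other chromosomes. The part of the chromosome in the value of Rpl13 was not tested.

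**Figure D5:**
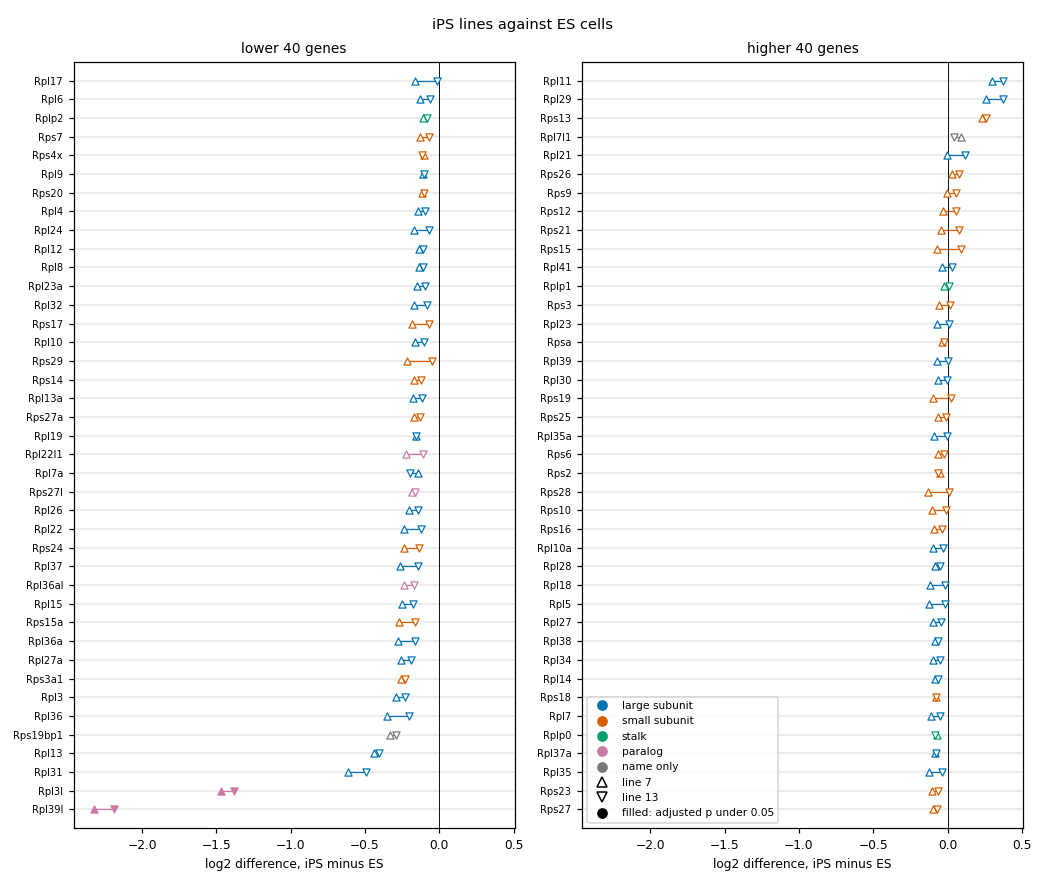
Log2 difference of each iPS line from ES cells for 80 of the 84 genes, ordered by their mean, with line 7 as upward and line 13 as downward triangles, coloured by role and filled where limma's adjusted p was under 0.05. Rpl39l (-2.26) and Rpl3l (-1.43) are the filled genes, the others lie between -0.55 and 0.33, and median scaling moved the median of all members from -0.09 to 0.00060.

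ES cells against BMMNCs compare 1 array with 1 array and have no test. The members' median difference was -0.18, and 0.23 with quantile normalization. At least 2-fold apart were 4 members (4.76%), against 55.2% of all genes, and all 4 were higher in ES cells. Rpl39l was 52.4-fold higher, Rpl4 2.11-fold, and Rps27l and Rps19bp1 both 2.04-fold. Rps24 had the lowest difference here too, at -0.84, with Rplp2 at -0.82 and Rplp1 at -0.80. The BMMNC array is shared with the comparison of the iPS lines, so the order of genes is not independent of it.

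Lines 7 and 13, the only replicates, lay close together. None of the members differed at least 2-fold, against 2.44% of all genes, and the widest difference among structural genes was 0.18. Line 7 was the lower in 79 of 84 members and in 12137 of all 21216 genes tested. The median difference was -0.06 over members, against -0.03 over all genes.

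Genes that build or use ribosomes were taken from lists of other pathway members. Of 63 ribosome assembly factors 54 rose and 3 fell in iPS cells against BMMNCs, with a median difference of 1.16 (0.95 to 1.29 over the 6 scalings), where the ribosomal proteins had -0.29 (-0.51 to 0.14). Of all tested genes 38.0% rose and 37.8% fell. Tsr1, which matures the small subunit, was at 2.85 in ES cells, 2.78 in line 7, 2.80 in line 13 and -0.27 in BMMNCs and rose by 3.06 (SE 0.092, adjusted p = 0.00096). Utp4, of the complex that processes small subunit rRNA, rose by 2.48 (SE 0.10). Riok1, a kinase of small subunit maturation, and Imp3 fell by 0.61 and 0.43, and neither passed without the filter on dim probes. Against ES cells, where 1.95% of all tested genes rose, 1 of the 63, Imp4, did (log2 difference 3.63, adjusted p = 0.043). Its level in ES cells was -5.08, close to the lowest level above background. This call too was lost in the 3 settings in which no gene passed. With the intensity trend 3 assembly factors rose and 15 fell against ES cells, where 15.6% and 20.7% of all genes did.

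RNA polymerase I, which transcribes the large rRNAs, gave a like count. Of 18 genes for it and its factors 13 rose and 0 fell against BMMNCs (median 0.71; 0 lower at an unadjusted p under 0.05 in limma, with or without an intensity trend), led by the initiation factor Rrn3 (1.97, SE 0.10) and the subunit Polr1c (1.81, SE 0.099). Among 35 translation initiation factors 23 rose and 6 fell (median 0.62), with Eif1a at 2.63 and Eif2s2 at 2.27 the highest and Eif1b at -1.28 the lowest. Among 12 elongation factors 4 rose and 2 fell (median 0.04, or -0.18 with median scaling), with Eef2k, the kinase that inhibits elongation factor 2, at -2.32. Of 19 genes of mTORC1 and S6 kinase signalling 11 rose and 6 fell (median 0.56), among them the translational repressor Eif4ebp1, which rose by 1.93. Of 76 mitochondrial ribosomal proteins, which serve the organelle's own ribosome, 28 rose and 13 fell (median 0.13, or -0.08 with median scaling), from Mrpl33 at -1.45 to Mrps18b at 2.12. Over all tested genes 38.0% rose and 37.8% fell. The rises of mitochondrial ribosomal proteins and elongation factors thus lay near the share over all genes, and their falls below it. Against ES cells no gene of these 5 lists passed limma's test, where 1.95% of all tested genes rose and 2.83% fell. The medians of the 5 lists lay between -0.16 and -0.02, of which those of RNA polymerase I, initiation and elongation turned positive with median scaling. Of their genes and those of the subunit genes with other names, 163 in all, 9 were higher and 13 lower at an unadjusted p under 0.05 in limma. That threshold was passed by 6636 of all 21216 genes in either direction. With the intensity trend 13 rose and 39 fell, of which 6 and 22 were mitochondrial ribosomal proteins. In that setting 15.6% of all tested genes rose and 20.7% fell.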

How the data were processed

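Cy3-labelled cRNA of 4 mouse samples was read on single-colour Agilent arrays of 1 slide with 1 scan, per the labels' protocols and the file headers. Signals were read with Agilent Feature Extraction 9.5, per the submitters' processing notes (9.5.1.1, per the file headers), from a low and a high scan joined for each array. The values are deposited intensities: a background-subtracted and detrended processed signal per spot, with 0 or 1 marks for background, saturation, outliers and the scan used, per the file headers. The authors' deposited value table, also an intensity table, held these signals after division by a factor that differs between arrays. It was linear and not centred by gene. Its column medians were 139.9 for ES cells, 135.9 and 133.6 for iPS lines 7 and 13, and 106.2 for BMMNCs; how the factors were set is unknown.

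Left out were control spots and the 14 probes that had only outlier spots on an array; repeated spots were averaged. Accessions were matched to the RefSeq table of GRCm38.p6, which named 22951 of 41174 probes. The level was log2 of the ratio of the processed signal to the 75th percentile of its array, and the probe with the highest mean stood for a gene. A linear model in limma 3.58.1 (R 4.3.3) took all 4 arrays and the 21216 genes or transcripts above background on at least 1 array (at least a share of 0.5 of the spots). It had 1 residual degree of freedom, from the iPS lines, a prior of 1.80 degrees of freedom and a prior SD of 0.0933. P-values were adjusted by Benjamini-Hochberg over all 21216, with a threshold of 0.05. The fit was tested on simulated data. Single arrays (ES cells and BMMNCs, or both iPS lines) were compared by size only.

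Alternatives were other scalings, normexp background correction with an offset of 50, the value table, other filters, an intensity trend, the mean of all probes and leaving out a line. Normexp used the median spot signal, since the files have no mean signal column. Counting ES and iPS arrays as 1 group was applied to the counts after the data were seen. The named members were the 3 highest and 3 lowest of each structural group in each iPS comparison, every paralog with its parent, genes whose probes differ in sign, and the genes included by name only. Outside this rule, Rpl15, Rpl24, Rps6, Rps14, Rps16 and Rps18 were chosen after their values were seen, though Rps18 also has probes that differ in sign. From each companion list the rule took the 2 highest and 2 lowest differences, of which some are named. Members and lists were chosen with earlier results of these data known. Values of some genes are not reported here by name. All members entered the counts, and 0 table columns lacked a sample.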

Additional observations from a re-analysis of the deposited data

How the results depend on the processing

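Against BMMNCs the count of members that rose, 15, was 8 with median scaling, 27 with quantile normalization, 6 without a filter on dim probes and 9 with ES and iPS arrays as 1 group. The share of all genes that rose, 38.0%, was 33.2%, 39.1%, 19.9% and 30.8% in the same order. The count that fell, 36, was 7 with quantile normalization, 8 without a filter and 20 with 1 group. The share of all genes that fell, 37.8%, was 38.6%, 21.7% and 30.4% in the same order. The other alternatives gave 13 to 19 rises or 11 for structural genes alone, and 26 to 46 falls. In them 34.8% to 41.3% of all genes rose, and 34.8% to 47.1% fell. The median difference, -0.29, became 0.14 with quantile normalization, -0.51 with median scaling, -0.19 with the 75th percentile over probes above background on all arrays, -0.21 with normexp, -0.17 with the authors' value table and -0.15 with the mean of all probes. For ES cells against BMMNCs the same settings turned -0.18 to 0.23, -0.49, -0.091, -0.12, -0.090 and -0.058. Quantile normalization also lowered the correlation of level and difference from -0.46 to -0.11.

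Against ES cells the count that rose, 0, was 1 with normexp, 2 with genes above background on all arrays and 3 with an intensity trend. Of all genes 9.79%, 16.3% and 15.6% rose in these settings, in the same order, and 14.3%, 22.6% and 20.7% fell. The count that fell, 2, was 7 with normexp, 7 with genes above background on all arrays, 14 with the trend, and 0 with the 75th percentile over detected probes, the value table, no filter or structural genes alone; the last follows from leaving out Rpl39l and Rpl3l. The median, -0.09, was 0.00060 with median scaling and between -0.10 and -0.05 with the other scalings and the mean of all probes. The cause of these shifts was not tested.

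Among named genes, the mean of all probes turned Rpl22 to 0.51, Rpl37 to -0.090 and Rps15a to 1.53 against BMMNCs, and quantile normalization turned Rps14 to 0.39, Rps16 to 0.32 and Rps18 to 0.46. The second probe of Rps15a was not well above background in BMMNCs, and that of Rpl37 was not in line 13. Leaving out a line gave members' medians of -0.31 to -0.27 against BMMNCs and -0.12 to -0.07 against ES cells, with no residual degree of freedom and so no test. The median difference between the lines stayed between -0.06 and -0.02 under the settings run.

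Precision rests on 1 residual degree of freedom, and single ES and BMMNC arrays have no replicate. No paired analysis was possible because the groups share fewer than 2 replicate numbers.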
